A study of Mus musculus with 115 samples.

Results

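Transcripts of 9 genes of the Myc family and its Max network were followed across the RNA-seq libraries of (TRAMP x WSB/EiJ) F2 mouse prostate tumors. The genes were chosen by symbol and matched to the Ensembl identifiers of the table, which lists 45699 genes, of which 23251 had a mean of at least 0.1 TPM (a transcript's length-corrected share of its library). Each F2 male carried the TRAMP transgene, in which the probasin promoter drives SV40 T antigen in prostate epithelium, on a mixed C57BL/6J and WSB/EiJ background. Tissue was taken at a fixed age or earlier at a humane endpoint, and small prostates gave RNA of the ventral lobe. The labels place all libraries in 1 group and give each its own mouse identifier, so relations across libraries take the place of a comparison of treatments. The study's methods name fewer mice than the table has libraries and do not say which, so all labelled libraries were used, and p-values measure the spread between them.

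Myc, Mycn and Mycl (the c-Myc, N-Myc and L-Myc proteins) are basic helix-loop-helix leucine zipper factors that bind E-box DNA as heterodimers with Max and activate growth, ribosome and cell cycle genes. Mnt and the Mxd proteins compete for Max and recruit Sin3 co-repressors, and Mlx is a second Max-like partner that joins some Mxd proteins and Mnt to nutrient-sensing factors. In prostate, luminal adenocarcinoma is known for gain of MYC, small cell neuroendocrine carcinoma for gain of MYCN, and TRAMP mice develop both atypical luminal lesions and poorly differentiated neuroendocrine tumors.

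Expression of the libraries separated. The first principal component over 14623 genes held 48.7% of the variance and split into a larger part of 79 libraries and a smaller part of 36 (BIC fell by 196 when 2 normal distributions replaced 1, Ashman D 6.09). Leaving out all genes listed here moved 0 libraries between the parts. The proliferation marker Mki67 was at 0.39 to 25.7 TPM in the larger part (median 4.23) and at 20 to 144 in the smaller (median 83.5), and the neuroendocrine marker Chga at 0.06 to 4.84 TPM (median 0.3) and 0.15 to 479 TPM (median 57.2). Of the smaller part, 4 libraries had Chga under 3 TPM (0.15 to 2.55, against 21.1 or more in the others), with Insm1, a neuroendocrine factor, at 0.11 to 1.91 TPM and the luminal keratin Krt8 at 369 to 630 TPM. Summed prostate luminal markers spanned 254 to 18030 TPM in the larger part and 8.53 to 2715 in the smaller, where the median of Pbsn was 0, so the labelled tissue had few luminal transcripts in part of the libraries. Because the parts were defined from expression, levels by part are a description with no test, relations were fitted inside each part, and a lower level in bulk tissue cannot be told apart from fewer cells of a type. The 20 genes with the largest share took 48.9% to 81.8% of a library's TPM, and summed seminal vesicle markers reached 149736 TPM in the larger part. Median-of-ratios scaling, which sets the typical gene rather than the total equal, gave size factors of 0.404 to 1.64. The limma fits on Mki67, Chga and each member were repeated on that scale over all libraries of a part. Fits with covariates or fewer libraries, permutation correlations, relations to marker sums and the genes most like each member used the deposited TPM only.

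In GRCm38 (GENCODE M21) Myc lies at chr15:61985391-61990374, Mycn at chr12:12936093-12941914, Mycl at chr4:122995652-123002485, Max at chr12:76937269-76962201, Mnt at chr11:74830920-74845725, Mlx at chr11:101087277-101092207, Mxd1 at chr6:86647042-86669161, Mxd3 at chr13:55325168-55329823 and Mxd4 at chr5:34173883-34187720. None had a near-identical copy elsewhere. The library kit does not mark strand, so reads from exon bases shared with a gene on the opposite strand cannot be told apart, which concerned 19.3% of the exon bases of Mlx (with Psmc3ip), 4.43% of those of Mxd3 (Prelid1) and 6.06% of those of Mxd4 (Gm42846). The bases just upstream of the annotated gene are shown for Mycn and Mxd3, whose medians were higher in the smaller part, and for Mxd4, whose median was lower there. The RefSeq window of Mycl begins inside the annotated gene, and Myc had no entry. The letters come from RefSeq on GRCm38.p6, read 5′ to 3′ on the gene's strand (all minus), with capitals marking the E-box CACGTG and the E2F-type letters TTTGGCGC or TTTCCCGC on either strand.

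Mycn, chr12:12941915-12942086: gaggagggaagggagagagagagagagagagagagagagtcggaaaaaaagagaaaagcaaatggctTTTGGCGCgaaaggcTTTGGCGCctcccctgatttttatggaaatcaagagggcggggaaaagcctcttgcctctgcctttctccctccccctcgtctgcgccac

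Mxd3, chr13:55329824-55329981: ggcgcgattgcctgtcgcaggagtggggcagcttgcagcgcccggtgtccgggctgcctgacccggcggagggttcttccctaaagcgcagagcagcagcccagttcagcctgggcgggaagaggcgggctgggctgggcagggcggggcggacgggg

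Mxd4, chr5:34187721-34187960: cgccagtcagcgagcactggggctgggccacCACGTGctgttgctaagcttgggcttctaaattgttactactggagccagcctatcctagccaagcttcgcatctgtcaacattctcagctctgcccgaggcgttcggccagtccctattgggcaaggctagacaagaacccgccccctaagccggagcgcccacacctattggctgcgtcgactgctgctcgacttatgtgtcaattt

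In the full windows, 4 of 8 members with an entry held CACGTG (Max, Mnt, Mlx and Mxd4), against 7.15% of 32851 RefSeq promoters. The E2F-type letters were in 1 of 8, Mycn, which held TTTGGCGC at both marked places, against 1.56% of promoters. The GC box GGGCGG was in 6 of 8 (35.7% of promoters) and CCAAT in 3 of 8 (37.4%). These letters are a description and not sites.

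Among the activators, Mycn and Mycl varied widely between libraries. Myc was at 0.77 to 7.28 TPM in the larger part (median 4.21) and at 0.59 to 8.87 in the smaller (median 2.3), so that its ranges overlapped throughout. Mycn was at 0 to 0.51 TPM in the larger part (median 0.06, listed at 0 in 1 library) and at 1.13 to 129 in the smaller (median 14.4). It was the only one of the 9 genes whose ranges in the parts did not overlap, a pattern found in 1.45% of the 23251 genes (335 higher and 1 lower in the smaller part). The library at 129 TPM stood alone, with the next at 33.6 TPM. Mycl was at 1.49 to 98.2 TPM in the larger part (median 40.1) and at 2.74 to 79.8 in the smaller (median 6.31), where the 4 libraries low in Chga held 45.5 to 79.8 TPM.

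Since TPM is per length, the paralogs can be set against each other inside a library. Mycl had the highest TPM of the 3 in 87 libraries, Mycn in 25 and Myc in 3. Mycl led in 77 of the 79 libraries of the larger part and Myc in the other 2. In the smaller part Mycn led in 25 of 36, Mycl in 10 and Myc in 1. Where the leader had to exceed the next by 1.5 times, the counts were 86, 24 and 1, with no leader in the other 4 libraries. The median share of the summed TPM was 89.6% for Mycl, 10.3% for Myc and 0.127% for Mycn in the larger part, and 25.9%, 8.03% and 60% in the smaller.

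**Figure D1:**
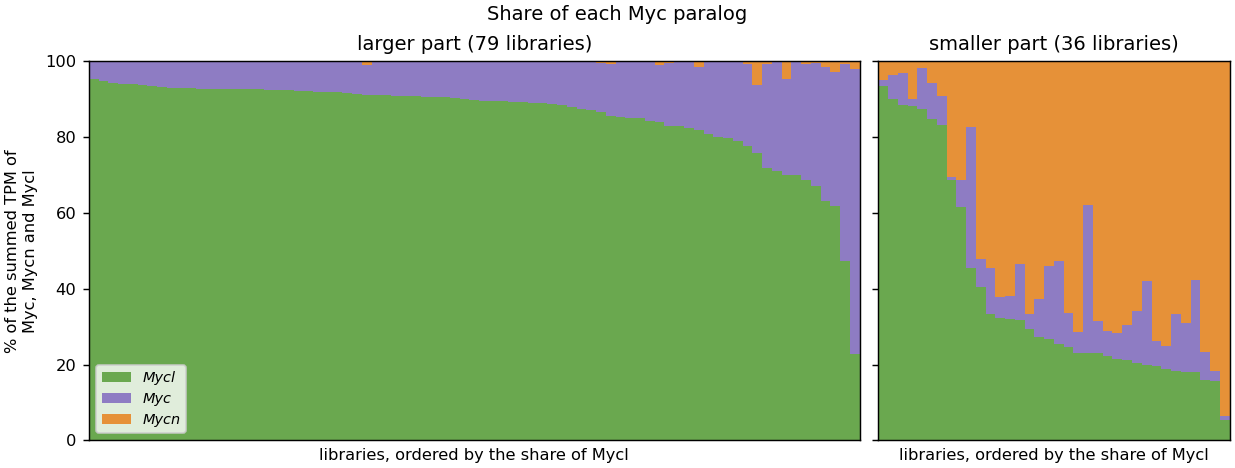
Share of Myc, Mycn and Mycl in their summed TPM (% on the vertical axis) in each library, 1 column per library ordered by the share of Mycl, for the larger part (79) and the smaller part (36). Mycl takes 22.7% to 95.4% in the larger part, and Mycn takes up to 93.7% in the smaller.

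The dimerization partners had similar levels in both parts. Max was at 4.28 to 19.2 TPM in the larger part (median 11.8) and 6.44 to 19.3 in the smaller (median 10.4). Mlx was at 6.17 to 18.2 TPM (median 11.2) and 5.85 to 20.7 TPM (median 10.4).

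Among the repressors, Mxd3 and Mxd4 showed opposite levels. Mxd3, the Mxd protein known for expression in S phase, was at 0.11 to 9 TPM in the larger part (median 1.39) and 8.27 to 54.6 in the smaller (median 25), with a narrow overlap. Mxd4, which is known from differentiated cells, was at 11.4 to 58.4 TPM (median 36.9) and 4.07 to 24.9 TPM (median 12.1). Mxd1, induced on differentiation in many tissues, was at 0.7 to 4.15 TPM (median 2.22) and 1.87 to 6.18 TPM (median 2.62). Mnt, the broadly expressed repressor, was at 0.49 to 4.28 TPM (median 1.56) and 1.16 to 4.35 TPM (median 2.3). At 1 TPM or more, Mycl, Max, Mlx and Mxd4 were found in all libraries, Mxd1 in all but 2, Mnt in all but 4, Myc in all but 5, Mxd3 in 88 and Mycn in 36, so that 8 of the 9 genes reached that level in at least 50% of libraries.

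**Figure D2:**
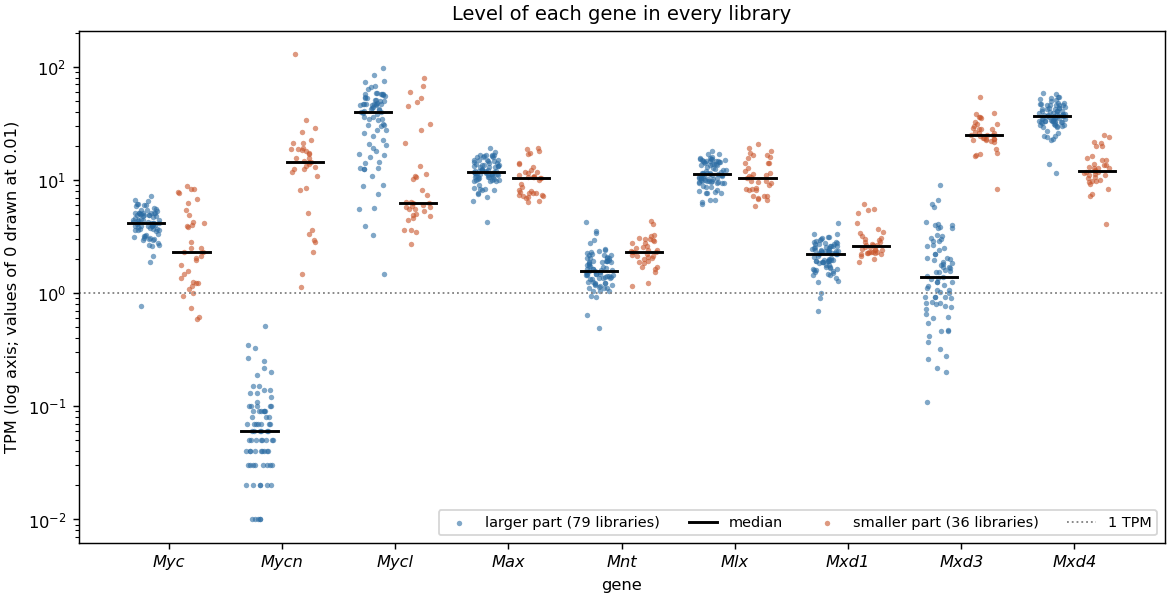
Level of each of the 9 genes in TPM (log axis) in every library of the larger part (blue, 79 points) and the smaller part (orange, 36 points), with black bars for medians and a dotted line at 1 TPM. Mycn lies at 0.51 TPM or less in the larger part and at 1.13 or more in the smaller, and values of 0 are drawn at 0.01.

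Ordered by the median over all libraries, the genes ran Mxd4 (32.8 TPM), Mycl (30.6), Max (11.5), Mlx (11), Myc (4.00), Mxd1 (2.33), Mxd3 (2.24), Mnt (1.85) and Mycn (0.09). Neighbours were compared inside libraries by a two-sided sign-flip permutation test adjusted over the 8 neighbour pairs. The test pools both parts. Over all libraries Mxd4 and Mycl (the former higher in 58 libraries), Max and Mlx (58) and Mxd1 and Mxd3 (56) did not pass (adjusted p = 0.851 for each). For Mxd1 and Mxd3 the parts went opposite ways. Throughout the smaller part Mxd3 (8.27 TPM or more) stood above Mxd1 (6.18 or less). In the larger part its median was lower (1.39 against 2.22 TPM). The other 5 pairs passed, from Mlx above Myc in all libraries but 1 (adjusted p = 2.67e-05) to Mnt above Mycn in 83 libraries (adjusted p = 0.00232). Ordered by the mean of log2(TPM + 1), Mxd3 stood above Myc. This order mostly reflects the 79 libraries of the larger part, since by the medians of the smaller part Mxd3 (25 TPM), Mycn (14.4) and Mxd4 (12.1) stood above Max and Mlx (10.4 each), Mycl (6.31), Mxd1 (2.62), and Myc and Mnt (2.3 each).

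The question set for the proliferation marker was which of these genes changed with Mki67 from library to library. Every gene was fitted by limma as a slope of its log2(TPM + 1) on that of Mki67, adjusted by Benjamini-Hochberg over all genes. In the larger part 5 of 9 members were higher with Mki67, against 58.8% of 23163 genes called (56.1% higher, 2.71% lower), so the count of members was near the background. The median slope of all genes was 0.10, and the size factor of a library rose with Mki67 (r = 0.614, rho = 0.642, permutation p = 1e-05 for both, which is the smallest value possible here, trimmed r = 0.656, where trimming drops the 2 libraries with the most extreme horizontal values). With median-of-ratios scaling 37.5% of genes were called, 16.6% higher and 21% lower, and 1 member was higher and 3 lower.

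Mxd3 was the member that rose most with Mki67 in the larger part. Its slope was 0.60 ± 0.03 (SE, 79 libraries, limma adjusted p = 1.72e-28), with r = 0.905 and rho = 0.926 (permutation p = 1e-05 for both) and a trimmed r of 0.896. The slope was 0.62 under median-of-ratios scaling (adjusted p = 1.91e-23), and its r stood at the 99th percentile of all genes. On log2(TPM + 0.1), which shrinks low values less, it was 0.77. Prelid1, which shares exon bases with Mxd3, had r = 0.588 with Mki67 (rho = 0.665, trimmed r = 0.631) and r = 0.462 with Mxd3 (rho = 0.596, trimmed r = 0.559), with permutation p of at most 3e-05, and its part in the Mxd3 values was not tested.

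The other 4 calls depended on the scale. Max had a slope of 0.18 ± 0.03 (adjusted p = 3.45e-07) as deposited and -0.02 under median-of-ratios scaling. Mlx (0.14, adjusted p = 8.71e-05) became -0.05 and Mxd1 (0.14, adjusted p = 1.19e-05) became -0.02, neither of them called. Mxd4 was called in both, in opposite directions, at 0.15 (adjusted p = 0.00078) and -0.08 (adjusted p = 0.0435). Myc was flat as deposited, at 0.01 ± 0.04 (adjusted p = 0.904), and lower with Mki67 under median-of-ratios scaling, at -0.20 (adjusted p = 5.55e-05). Mnt likewise was at 0.07 (adjusted p = 0.0581) and at -0.10 (adjusted p = 0.00829). Mycl, at 0.21 ± 0.11, and Mycn, at 0.02 ± 0.01, were called on neither scale (adjusted p = 0.107 and 0.177 as deposited). All 5 leukocyte markers and 3 of 5 stroma markers were also higher with Mki67 as deposited, and Mxd3 was 0.59 with both marker indices as covariates.

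**Figure D3:**
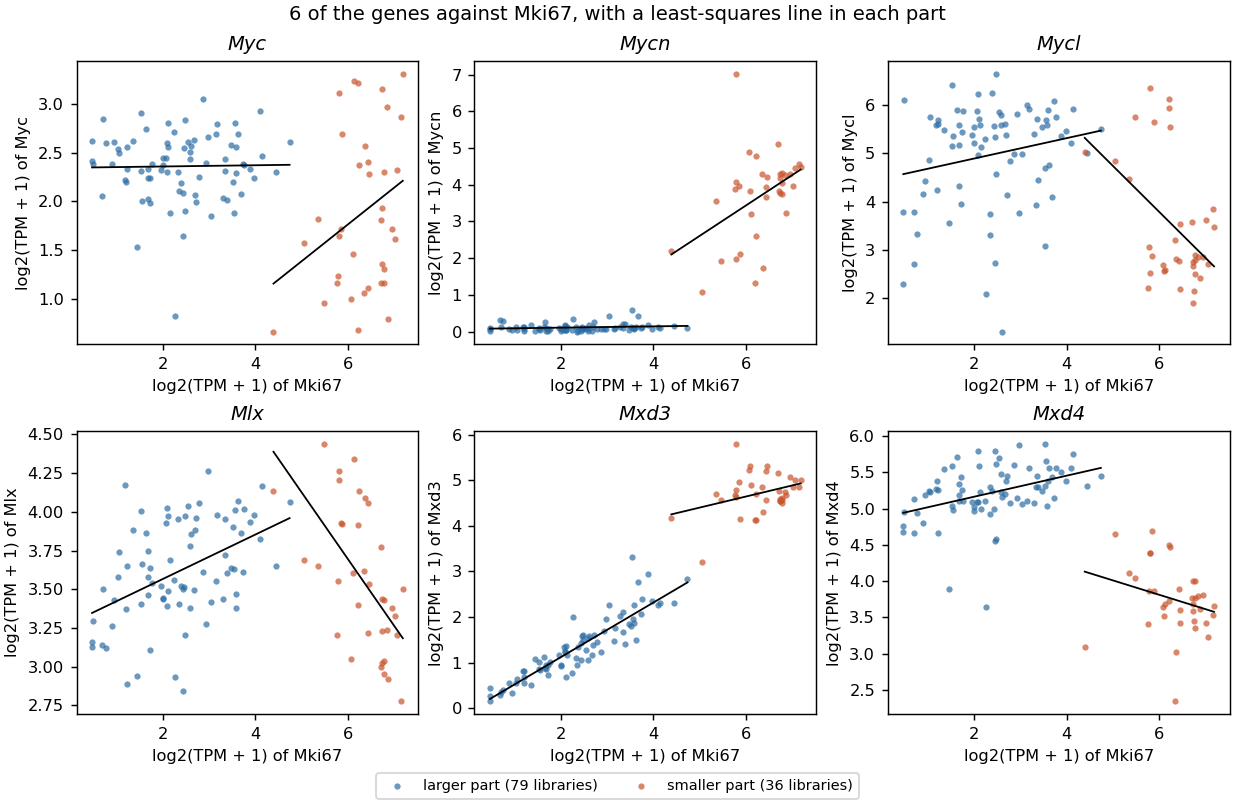
log2(TPM + 1) of 6 of the genes against log2(TPM + 1) of Mki67 in each library of the larger part (blue, 79) and the smaller part (orange, 36), with a least-squares line in each part. Mxd3 follows Mki67 in the larger part (slope 0.60), where Myc is flat (0.01), and Mycn rises and Mycl and Mlx fall in the smaller part.

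In the smaller part 3 of 9 members changed with Mki67, against 42.8% of 23165 genes (24.5% higher, 18.3% lower). Under median-of-ratios scaling 1 was higher and 4 lower (25.3% and 31.1% of genes), Max (-0.34) and Mxd1 (-0.23) being called besides those 3. Mycn was higher, with a slope of 0.83 ± 0.28 (36 libraries, adjusted p = 0.0176), r = 0.437 (permutation p = 0.00807), rho = 0.43 (permutation p = 0.0101) and trimmed r = 0.269. Without the 2 trimmed libraries the slope stayed positive, at 0.60, and lost its call (adjusted p = 0.174), while without the library at 129 TPM it was 0.98 (adjusted p = 0.00106). Mlx was lower, at -0.43 ± 0.10 (adjusted p = 0.000872), with r = -0.595 (permutation p = 9e-05), rho = -0.639 (permutation p = 4e-05) and trimmed r = -0.615. Psmc3ip, its overlapping gene, had r = -0.003 with Mki67 (rho = -0.117, permutation p = 0.986 and 0.494, and trimmed r = -0.194). With Mlx itself Psmc3ip had r = 0.367 (rho = 0.408, permutation p = 0.0285 and 0.0141, trimmed r = 0.385), and its part in the Mlx values was not tested.

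Mycl was lower with Mki67 in the smaller part, at -0.95 ± 0.30 (adjusted p = 0.0116), and on ranks the call was lost (adjusted p = 0.117). Mycl itself fell into a low group of 27 and a high group of 9 libraries. Inside them r with Mki67 was 0.305 (rho = 0.259, permutation p = 0.121 and 0.191, trimmed r = 0.297) and 0.662 (rho = 0.533, exact permutation p = 0.051 and 0.148, trimmed r = 0.562), so r was positive inside each group and passed in neither. With Mki67, all 5 stroma markers, 4 of 5 leukocyte and 4 of 6 prostate luminal markers were lower in the smaller part. With stroma and leukocyte indices as covariates, where 25.8% of genes were called, Mycn was at 0.66 (adjusted p = 0.133) and Mycl at -0.54 (adjusted p = 0.245), Mlx kept its call at -0.31 (adjusted p = 0.0382), and Myc (0.74, adjusted p = 0.00886) and Mnt (0.24, adjusted p = 0.0403) were called. Mxd3 had a slope of 0.24 ± 0.11 here (adjusted p = 0.0802), and whether it differs from the slope in the larger part was not tested. Of the 5 other proliferation markers, 2 were higher with Mki67 here and 0 lower. Against the sum of all 6, Mki67 included, Mxd3 had r = 0.692 (rho = 0.626, trimmed r = 0.484, permutation p adjusted over 126 relations = 0.000126). Myc was at 0.373 (adjusted p = 0.0449), Mycn at 0.357 (0.0656), Mycl at -0.218 (0.269) and Mlx at 2.78e-04 (0.999).

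The question set for Chga was which members changed with the neuroendocrine marker. In the larger part 1 of 9 was called, against 19.1% of genes, and Chga there stayed at or under 4.84 TPM. Mnt was higher, at 0.22 ± 0.08 (adjusted p = 0.0315), with r = 0.318 and rho = 0.293 (permutation p = 0.0057 and 0.0093) and trimmed r = 0.438, and lost the call under median-of-ratios scaling (0.17, adjusted p = 0.0627). Chga separated inside the larger part. In the 72 libraries low in Chga limma called 0 of 9 members, against 1.16% of genes, with 2 (Mnt and Mxd4) at an unadjusted p under 0.05, and in the 7 others the exact permutation p of r ran from 0.226 (Myc, r = -0.525, rho = -0.607) to 0.953 (Max, r = -0.0255, rho = -0.0714).

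In the smaller part 4 of 9 members were lower with Chga and 0 higher, against 27.9% of genes called (19.2% lower, 8.69% higher). The slopes were -0.11 ± 0.03 for Mxd1 (adjusted p = 0.000835), -0.32 ± 0.10 for Mycl (adjusted p = 0.0152), -0.12 ± 0.04 for Mxd4 (adjusted p = 0.0158) and -0.19 ± 0.07 for Myc (adjusted p = 0.0274). Under median-of-ratios scaling 3 were lower and 2 higher (15.3% and 11.4% of genes), where Mxd4 lost its call (-0.08, adjusted p = 0.114) and Mycn (0.26, adjusted p = 0.0479) and Mxd3 (0.11, adjusted p = 0.0437) were called. The 4 libraries low in Chga held (a description with no test) 5.09 to 6.18 TPM of Mxd1 (4.13 or less in the others), 17.3 to 19.3 of Max (17 or less), 4.19 to 8.27 of Myc (0.59 to 8.87) and 13.6 to 21.6 of Mxd4 (4.07 to 24.9). Without those libraries none of the 4 was called. The slopes of Mycl and Mxd1 turned positive, at 0.25 (adjusted p = 0.409) and 0.04 (adjusted p = 0.69), while those of Mxd4 and Myc stayed negative, at -0.13 (adjusted p = 0.336) and -0.13 (adjusted p = 0.634). Max (0.17, adjusted p = 0.0415) and Mlx (0.25, adjusted p = 0.0219) were higher with Chga there, with 4.95% of genes called. By rank Mxd1 had rho = -0.077 (permutation p = 0.652) beside r = -0.65 (permutation p = 0.00016) and trimmed r = -0.438. Mycn had a slope of 0.23 ± 0.10 (adjusted p = 0.0739) in all 36 libraries and of -0.15 (adjusted p = 0.726) without the 4.

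**Figure D4:**
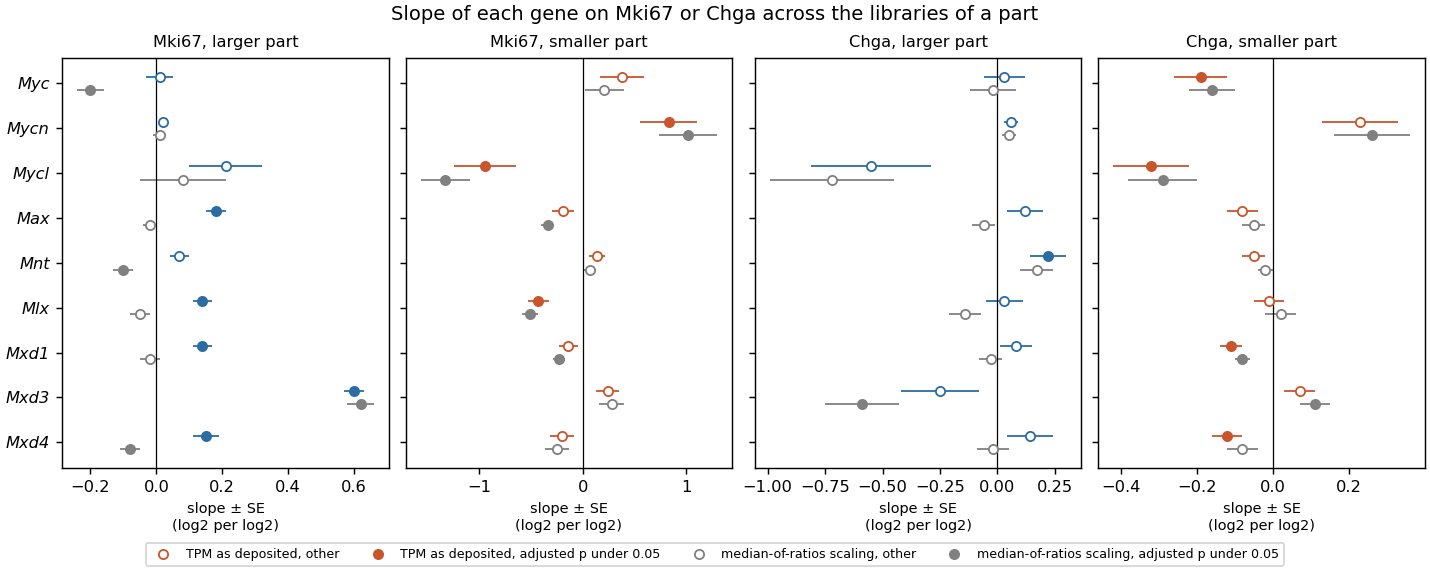
Slope of each gene's log2(TPM + 1) on that of Mki67 or Chga with its SE, inside the larger part (blue) and the smaller part (orange) as deposited, and under median-of-ratios scaling (grey). Filled circles passed an adjusted p of 0.05. Max, Mlx, Mxd1 and Mxd4 lie on opposite sides of 0 under the scalings for Mki67 in the larger part, and Mxd3 at 0.60 and 0.62.

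Pairs of members were called where both fits, each gene as regressor in turn, passed. In the larger part 27 of 36 pairs were called, 25 positive and 2 negative, and under median-of-ratios scaling 23, of which 19 were positive. With Myc as regressor 42.4% of all genes were called, with Mycn 20%, Mycl 50%, Max 72.4%, Mnt 68.9%, Mlx 62.6%, Mxd1 67.4%, Mxd3 50.1% and Mxd4 64.2%. Max moved most closely with Mxd1 (r = 0.856, rho = 0.813, trimmed r = 0.817) and Mxd4 (0.769, 0.695 and 0.676), and Mlx with Mxd4 (0.76, 0.727 and 0.741), each with permutation p = 1e-05. The negative pairs were Mycn with Myc (r = -0.37, rho = -0.186, permutation p = 0.00244 and 0.101, trimmed r = -0.344) and Mycn with Mycl (r = -0.45, rho = -0.364, permutation p = 0.00019 and 0.00093, trimmed r = -0.459). On ranks 1 negative pair was called. Mycn was at or under 0.51 TPM there. Mycn and Mycl each separated inside the larger part, so these pairs span groups of libraries. Inside the groups of Mycn, r with Myc was not computed. Inside the groups of Mycl, r with Mycn was -0.251 in 25 libraries (rho = -0.211, permutation p = 0.225 and 0.31, trimmed r = -0.307) and -0.256 in 54 (rho = -0.182, permutation p = 0.0635 and 0.188, trimmed r = -0.144).

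In the smaller part 12 of 36 pairs were called, 8 positive and 4 negative. Under median-of-ratios scaling 9 were called, 5 positive and 4 negative, and with the top 20 genes by TPM share removed 8, of which 3 were positive and 5 negative. Of all genes, 5.11% were called with Myc as regressor, 24.9% with Mycn, 43.3% with Mycl, 49.7% with Max, 6.02% with Mnt, 48.5% with Mlx, 46.3% with Mxd1, 13.7% with Mxd3 and 32.4% with Mxd4. Max with Mxd1 had r = 0.74 (rho = 0.574, permutation p = 1e-05 and 0.00032, trimmed r = 0.64). Mycn was positive with Mxd3 (r = 0.563, rho = 0.476, permutation p = 0.00054 and 0.00395, trimmed r = 0.523) and negative with Mlx (r = -0.518, rho = -0.515, permutation p = 0.00129 and 0.00158, trimmed r = -0.626). Without the 4 libraries low in Chga 1 pair was called, Max with Mlx (r = 0.52).

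**Figure D5:**
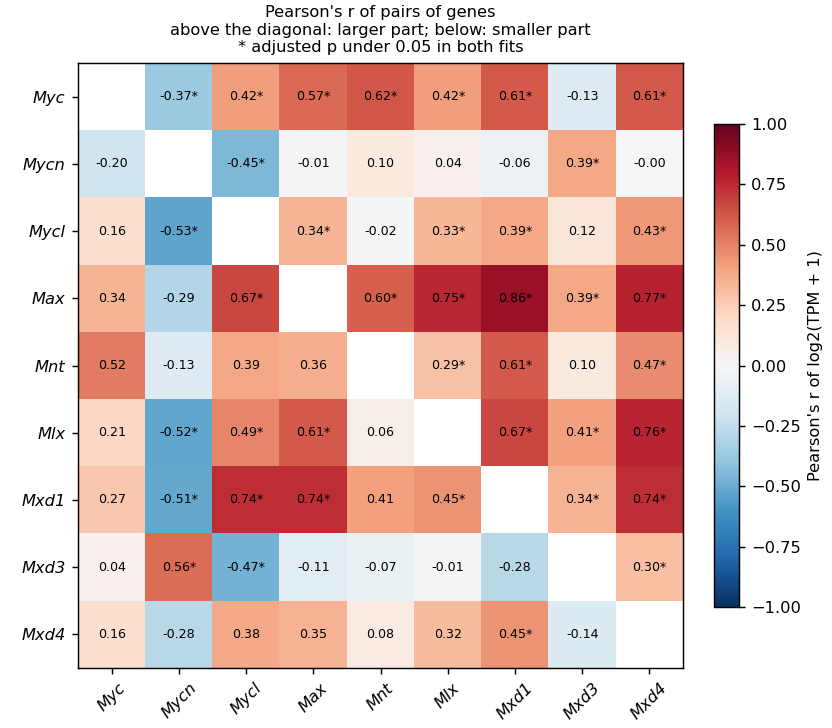
Pearson's r of log2(TPM + 1) for each pair of genes, above the diagonal over the 79 libraries of the larger part and below it over the 36 of the smaller part. Asterisks mark the 27 and 12 called pairs. Mycn, at or under 0.51 TPM in the larger part, has a negative r with Myc and Mycl there, and Max with Mxd1 is at 0.86 and 0.74.

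Marker levels moved with some members. Mycl rose with the summed prostate luminal markers (adjusted p = 0.000126 over 126 relations in each part), 6 genes which all had a median of at least 1 TPM in the larger part. Inside its low and high groups of the larger part r was 0.619 (25 libraries, rho = 0.553, permutation p = 0.00079 and 0.00471, trimmed r = 0.625) and 0.468 (54 libraries, rho = 0.487, permutation p = 0.00055 and 0.00024, trimmed r = 0.475). In the groups of the smaller part it was 0.193 (27 libraries, rho = 0.313, permutation p = 0.333 and 0.112, trimmed r = 0.177) and -0.19 (9 libraries, rho = -0.0333, exact permutation p = 0.622 and 0.948, trimmed r = 0.667). Mxd4 rose with the summed stroma markers in the larger part (r = 0.593, rho = 0.502, permutation p = 1e-05 for both, adjusted p = 0.000126 over 126 relations, trimmed r = 0.404) and in the smaller (r = 0.584, rho = 0.604, permutation p = 0.00023 and 0.00017, adjusted p = 0.00121, trimmed r = 0.608). Mxd4 also rose with the summed leukocyte markers (r = 0.273, adjusted p = 0.0335, and 0.642, adjusted p = 0.00021, in the larger and smaller part) and the summed endothelial markers (r = 0.386, adjusted p = 0.00169, and 0.604, adjusted p = 0.00048). These relations were not particular to Mxd4. Max passed with each of the sums in both parts (stroma r = 0.489 and 0.603, leukocyte 0.351 and 0.477, endothelial 0.368 and 0.549). Mlx did too (0.403 and 0.584, 0.469 and 0.567, 0.32 and 0.498). Mxd1 passed in both parts with stroma (0.407 and 0.518) and endothelial markers (0.288 and 0.512). The share of all genes rising with these sums was not computed. The summed stroma level reached 2239 TPM in the larger part (median 710) and ran from 1.53 to 796 TPM in the smaller, with no stroma marker at a median of 0, and its part in the Mxd4 levels was not tested.

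The 8 summed neuroendocrine markers, of which Chga is 1, were also set against the members in the larger part, where their sum ran from 1.31 to 45 TPM and 2 of the 8 had a median of at least 1 TPM. Mnt (r = 0.461, rho = 0.469, permutation p = 4e-05 and 3e-05, adjusted p = 0.000315, trimmed r = 0.512), Mxd4 (r = 0.367, rho = 0.381, adjusted p = 0.00374, trimmed r = 0.382), Max (r = 0.347, rho = 0.339, adjusted p = 0.00488, trimmed r = 0.338) and Mxd1 (r = 0.257, rho = 0.267, adjusted p = 0.0436, trimmed r = 0.277) rose with that sum. The deposited TPM alone was used, and the share of all genes rising with the sum was not computed. With Chga alone the median r of all genes in this part was 0.158. Mycn (r = 0.538, adjusted p = 0.000126) and Mycl (r = -0.289, adjusted p = 0.0223) also passed over the whole part, but span groups of libraries. Inside the low group of Mycn r was 0.563 (69 libraries, rho = 0.591, permutation p = 1e-05 for both, trimmed r = 0.53), and inside its high group -0.187 (10 libraries, rho = -0.176, permutation p = 0.582 and 0.623, trimmed r = -0.0543). Mycn was at or under 0.51 TPM in this part, where a pseudocount of 1 leaves little variation. Inside the groups of Mycl neither r passed (0.0925 in 25 libraries, permutation p = 0.661, and -0.259 in 54, permutation p = 0.0582). In the smaller part, where the sum ran from 8.26 to 728 TPM, signs differed. Mxd1 (r = -0.728, rho = -0.179, adjusted p = 0.000371), Mxd4 (-0.484, -0.318, 0.0101) and Max (-0.446, 0.0425, 0.0147) fell with it. Mycl fell (r = -0.54, rho = -0.0157, adjusted p = 0.0043), spanning its groups, and Mycn rose (r = 0.393, rho = 0.235, adjusted p = 0.0412). Mnt did not pass (r = -0.236, adjusted p = 0.23). The 4 libraries low in Chga were included.

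Genes of the wider pathway were counted from lists. Of 12 nucleolar and ribosome biogenesis genes that Myc is known to bind, 12 were higher with Mki67 in the larger part (median slope 0.21, against 0.10 for all genes and 56.1% higher), with Nop56 at 0.38, Nop58 and Fbl at 0.37 and Npm1 at 0.35. All genes here include many of low level. Among genes averaging 1 TPM or more, 10660 of 14621 were higher and the median slope was 0.177, nearer to those of the lists. Under median-of-ratios scaling 5 were higher and 1 lower (median slope 0.03). Of 12 metabolic and growth genes 8 were higher and 0 lower (median slope 0.19), with Cdk4 at 0.38, Tfrc at 0.28, Hspd1 at 0.26 and Eif4a1 at 0.23, and 2 were higher and 3 lower under median-of-ratios scaling. Of 18 cofactors, co-repressors and turnover factors 18 were higher (median slope 0.24), with the kinases Aurka at 0.64 and Pim1 at 0.53, the phosphatase inhibitor Cip2a at 0.63 and the ubiquitin ligase subunit Skp2 at 0.44. These became 0.61, 0.40, 0.59 and 0.35 under median-of-ratios scaling, where 7 of the 18 were higher and 1 lower. In the smaller part 5 of 12 ribosome biogenesis genes, 2 of 12 metabolic genes and 8 of 18 cofactors were higher with Mki67 (24.5% of all genes) and none of these lists had a member lower (18.3%). Under median-of-ratios scaling 4 ribosome biogenesis genes were higher and 2 lower, 1 metabolic gene was higher and 2 lower, and 7 cofactors were higher and 1 lower.

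With the paralogs as regressors, 11 of 12 ribosome biogenesis genes were higher with Myc in the larger part (41% of all genes), 10 with Mycl (23.8%) and 0 with Mycn (16.1%), by limma, with 0 at an unadjusted p under 0.05. Among genes averaging 1 TPM or more, 8066 of 14621 were higher with Myc, 5147 with Mycl and 2563 with Mycn. Mycn was at or under 0.51 TPM there, and with a pseudocount of 1 such values hardly vary. Under median-of-ratios scaling the counts were 5 with Myc (20.2%, and 1 lower) and 10 with Mycl (25.1%), and the median slope on Mycl was 0.14 as deposited and 0.13, against -0.01 and -0.02 for all genes. In the smaller part 3 of 12 were higher with Myc (4.64%), 3 with Mycn (7.55%) and 2 with Mycl (32.3%). Under median-of-ratios scaling 1 was higher with Myc (1.08%) and 5 with Mycn (12.4%), while with Mycl 4 were lower (19.7%) and none higher (23.4%).

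Of the 4 other network genes, the repressors Mxi1 and Mga and the glucose-sensing Mlx partners Mlxip and Mlxipl, all were higher with Mki67 in the larger part (slopes 0.18, 0.25, 0.15 and 0.20, against 56.1% of all genes), and 0 were called in either direction by limma under median-of-ratios scaling (0 at an unadjusted p under 0.05), with Mxi1 at -0.01, Mga at -0.0011 and Mlxip at -0.07. Mga, a Max partner that also carries a T-box, was higher with Mki67 in the smaller part, at 0.63 ± 0.07 (adjusted p = 9.26e-09), with r = 0.859 and rho = 0.837 (permutation p = 1e-05 for both), trimmed r = 0.83, and a slope of 0.56 under median-of-ratios scaling. Its r stood at the 99.7th percentile of all genes in that part.

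The genes most like each member by Pearson's r over the 79 libraries of the larger part, a description, were as follows. Mxd3 was followed by the kinetochore gene Nuf2 (0.972), Shcbp1 (0.962) and the spindle gene Tpx2 (0.957). Mycl was followed by Lmo7 (0.926), Tst (0.91) and the aldose reductase Akr1b3 (0.895), and Mycn by Adamtsl2 (0.854), the growth factor midkine Mdk (0.829) and the ephrin Efnb3 (0.823). The values of Mycn rest on levels at or under 0.51 TPM and span its groups of 69 low and 10 high libraries. Those of Mycl span groups of 25 and 54. Myc had lower values, with the actin crosslinker Actn4 (0.823), Slc39a9 (0.803) and Cacfd1 (0.789). Max was followed by the calcineurin subunit Ppp3r1 (0.919), Ccni (0.915) and 6030458C11Rik (0.912), and Mlx by the tRNA synthetase subunit Farsa (0.887), Mfsd14a (0.884) and Cdc16 (0.884), a subunit of the anaphase-promoting complex. Mnt was followed by Bcl9l (0.908), Rnf44 (0.892) and Prrc2a (0.89), Mxd1 by Ubn1 (0.884), Smcr8 (0.871) and Crkl (0.871), and among those of Mxd4 were Aggf1 (0.895) and Orai3 (0.891).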

How the data were processed

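RNA was measured in the libraries of transgene-positive F2 prostate tumors, after rRNA depletion with a kit that does not mark strand. The labels give a minimum of 43000000 read pairs of 126 bases. The authors processed reads with CASAVA 1.8.2, trimmed them with Trimmomatic, mapped them with Bowtie2 2.2.5 to transcripts carrying both strains' alleles, which Seqnature built on GRCm38, and quantified genes with RSEM 1.2.20. The annotation is not given in the sources used here. The authors deposited TPM per gene, scaled within each library. TPM keeps no depth, so the counting precision of a value is unknown and no count model was used.

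Symbols were matched to Ensembl identifiers with GENCODE M21, which named 98.8% of genes. The members and gene lists were chosen with earlier results of these data known. Slopes of log2(TPM + 1) were fitted with limma 3.58.1 (R 4.3.3, trend) inside each part, for genes averaging 0.1 TPM or more, and called at a Benjamini-Hochberg adjusted p under 0.05 over all genes. Pearson's r and Spearman's rho had two-sided permutation p-values from 100000 resamples (exact for 9 libraries or fewer), unadjusted unless stated, and the trimmed r leaves out the 2 libraries whose horizontal value is most distant from its median. Parts were called separate when 2 normal distributions lowered the BIC by over 10, Ashman D was over 2 and each held at least 6 libraries. Sequences were read from RefSeq promoters, copies were searched with BLAST+ 2.17.0, and the scripts (Python 3.11.15, scipy 1.17.1, scikit-learn 1.9.0) were tested on simulated data.

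The genes named were the 9 members, Mki67 and Chga, the 4 other network genes, the 3 genes with the highest r with each member in the larger part (averaging 1 TPM or more) and, of each pathway list, the 4 with the largest called slopes on Mki67 there. Marker genes and overlapping genes were named beside results they touch. The alternatives were median-of-ratios scaling, rescaling after removal of the 20 genes that took most TPM, a pseudocount of 0.1, other filters, ranks, marker covariates, Mki67 and Chga in 1 model, other parts and leaving out libraries. A gene among those most like Mxd4 is not reported here.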

Additional observations from a re-analysis of the deposited data

How the results depend on the processing

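The libraries carry 1 labelled group and no counts, so neither treatment effects nor counting error could be estimated, and parts found from expression stand in for tumor classes. Alternatives that leave out the 4 libraries low in Chga, the library highest in Mycn, or the 7 libraries of the larger part high in Chga were chosen after seeing the data, and ranks were fitted with limma on ranks. Samples could not be paired between groups because all share 1 group, and the sign-flip test of neighbouring levels was paired inside libraries. Of members related to Mki67, the larger part had 2 called after rescaling with the 20 genes of highest TPM share removed (7934 of 23143 genes). As reported there were 5 (58.8% of genes). The smaller part had 5 under median-of-ratios scaling (13084 of 23165 genes) and 5 after that rescaling (13334 of 23145). As reported there were 3 (42.8% of genes). Of members related to Chga in the larger part, 1 was called as reported (19.1% of genes). With Mki67 and Chga in 1 model 2 were called (8689 of 23163 genes), with a pseudocount of 0.1 2 (4844 of 23163) and after rescaling 2 (4856 of 23143). In the 72 libraries low in Chga 0 were called (limma, 2 at an unadjusted p under 0.05, 1.16% of genes called). Of those in the smaller part, 4 were called as reported (27.9% of genes). On ranks 0 were called (limma, 1 at an unadjusted p under 0.05), with 238 of 23165 genes called. With marker covariates 1 was called, without the 2 farthest libraries 1 (1924 of 23161 genes) and without the 4 libraries low in Chga 2 (4.95% of genes). The calls over all genes thus also fell on ranks and with these libraries left out. Of the 12 called pairs in the smaller part, 7 remained without the 2 farthest libraries and 1 without those 4. The share of all gene pairs called was not computed under any setting. The causes were not tested.

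Slopes on Mki67 in the larger part reversed under median-of-ratios scaling for Myc (-0.20), Max (-0.02), Mnt (-0.10), Mlx (-0.05), Mxd1 (-0.02), Mxd4 (-0.08), Mxi1 (-0.01), Mga (-0.0011) and Mlxip (-0.07), after rescaling for Myc (-0.14), Mlx (-0.01) and Mxd4 (-0.02), and with marker covariates for Mlxipl (-0.15). Slopes on Chga in the smaller part reversed without the 4 libraries for Mycl (0.25), Max (0.17), Mlx (0.25) and Mxd1 (0.04). Of 790 alternative values, 721 were for the 68 named slopes and pair correlations. Of these 721, 623 kept their direction and side of the threshold, 32 gained a call, 49 lost one and 17 reversed. Among the 623 were 22 slopes that were called in neither fit and changed sign.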
